A study of Mus musculus with 9 samples.

Results

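The contractile actin genes described here are 10 genes of smooth muscle and of stress fibres: Acta2, Tagln, Tagln2, Myl9, Cnn1, Cnn2, Tpm1, Tpm2, Cald1 and Actn1. They were chosen from a readout of these data, since Acta2 was among the highest genes of the cultures, and the others were named for their roles beside it. All 10 were listed in both deposited tables, among 17964 genes in all. Their levels in the cultures are therefore a description with no test, while the comparison of sorted cells was not used to choose them.

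The study profiled RNA of mouse Müller glia, the radial support cells that span the retina, in 9 libraries of 3 groups with 3 libraries each. In the ocular hypertension group (OHT), 1.2 µL of silicone oil was placed in the anterior chamber of both eyes of wild-type mice, and the sham group had a corneal incision alone. The ages of these animals are not stated in the labels. Neural retinas were pooled, 4 per sample, dissociated with papain, freed of dead cells and sorted on magnetic beads coated with the ACSA-1 antibody, which recognises GLAST, a glutamate transporter of Müller glia and of astrocytes. The third group was untreated primary cultures from the retinas of C57BL/6J pups between postnatal day 8 and 10, grown on gelatin in medium with fetal bovine serum and passaged once confluent. The sources do not say whether the 3 cultures came from separate litters, so the spread between them may be technical. The p-values below measure only the spread between these libraries.

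Contraction outside striated muscle runs on bundles of actin filaments pulled by non-muscle or smooth muscle myosin. Acta2 encodes smooth muscle alpha actin, which is built into stress fibres of smooth muscle cells, pericytes and myofibroblasts. Tropomyosins (Tpm1, Tpm2) lie along the filament, and calponins (Cnn1, Cnn2), transgelins (Tagln, Tagln2) and caldesmon (Cald1) bind it and restrain or stabilise it. Myl9 encodes a regulatory light chain whose phosphorylation switches the myosin motor on, and Actn1 encodes an alpha actinin that crosslinks filaments. Many of these genes are driven by serum response factor, which binds a sequence known as the CArG box and works with actin-sensing or muscle-restricted cofactors. In the retina Acta2 is known as a marker of mural cells on the vessels, and glia and fibroblasts can take it up in culture or in scars.

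Because the genes were high together in the cultures, their promoter sequences were searched for the CArG box, a pair of C bases and a pair of G bases around 6 bases that are all A or T. RefSeq promoter windows (GRCm38.p6) were held for 9 of the 10 genes, Tagln being the exception. Each ran from 250 bases before to 50 bases after an annotated start, and all 300 bases were searched. For Acta2 and Myl9 the RefSeq gene bounds begin upstream of that start, at 34255585 and 156775408. Distances below therefore hold for the start used alone. The 250 bases before the start are shown for the 3 genes with a match, 5′ to 3′, with capitals marking each CArG box and each sequence with 1 other base among the 6.
Acta2, chr19:34255374-34255623, minus strand: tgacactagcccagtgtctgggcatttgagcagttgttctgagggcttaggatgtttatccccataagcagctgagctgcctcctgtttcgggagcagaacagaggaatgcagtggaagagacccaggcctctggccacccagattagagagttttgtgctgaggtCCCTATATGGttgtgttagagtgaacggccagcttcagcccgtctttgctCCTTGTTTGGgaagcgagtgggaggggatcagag
Myl9, chr2:156775214-156775463, plus strand: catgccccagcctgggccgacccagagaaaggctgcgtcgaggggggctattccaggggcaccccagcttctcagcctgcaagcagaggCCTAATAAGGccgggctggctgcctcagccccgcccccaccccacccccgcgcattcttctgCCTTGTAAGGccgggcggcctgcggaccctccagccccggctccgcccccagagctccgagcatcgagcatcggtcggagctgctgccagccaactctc
Cnn2, chr10:79988350-79988599, plus strand: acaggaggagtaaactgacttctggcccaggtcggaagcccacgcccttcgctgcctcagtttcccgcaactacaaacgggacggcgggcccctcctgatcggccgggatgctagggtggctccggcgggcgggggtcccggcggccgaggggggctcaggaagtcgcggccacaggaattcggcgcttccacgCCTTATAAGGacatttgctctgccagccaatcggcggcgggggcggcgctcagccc
The exact box was found in Myl9 (CCTAATAAGG, beginning 161 bases before the start) and in Cnn2 (CCTTATAAGG, 56 bases before it), that is in 2 of 9 genes, compared with 1.81% of the 27025 genes in that table. Acta2 had no exact box in this window but held CCCTATATGG and CCTTGTTTGG, 84 and 34 bases before the start, each with 1 base other than A or T at the core. With 1 such base allowed, 3 of 9 genes had a match, against 11.3% of all genes. Another muscle motif, CATTCC on either strand, was held by 4 of the 9 (Acta2, Cald1, Tagln2 and Tpm1) and by 16.6% of all genes. No match was found within these windows in Cnn1, Tpm2 or Actn1 for any of the 3 searches. A match describes the letters only, and where a gene has none, only this window was searched.

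The sorted libraries held 37.8 to 53.6 M reads (1e6 reads) and the cultures 66.3 to 76.7 M, as recovered from the deposited values. Müller markers were present in the sorted cells, but the fraction was mixed. A list of 12 microglia and macrophage markers summed to between 3.41% and 6.27% of reads, against 0.201% to 0.885% for 14 Müller glia markers. In the cultures the Müller list held 0.273% to 0.358%, of which the intermediate filament gene Vim made up most. Without Vim the list held 260, 339 and 428 ppm (reads per 1e6 reads of the library) in the cultures and 1908 to 8726 ppm in the sorted libraries, and 13 of its 14 genes, Rlbp1 and Glul among them, were lower in every culture than in every sorted library. The 8 fibroblast markers summed to 0.608%, 0.862% and 0.826% of the cultures and to at most 0.0162% of a sorted library. The collagens Col1a1, Col1a2 and Col3a1 made up 98.9% to 99.1% of that culture sum, and the other 5 markers summed to 64.2 to 78.9 ppm in cultures and 3.01 to 157 ppm in sorted libraries, with Lum and Pi16 near 0 in both. Most markers of the labelled cell type were thus lower in the cultures than in the sorted cells. These levels alone do not settle which cells the cultures held, and the third group is called cultures below.

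In the cultures the contractile genes were among the most abundant transcripts of the cell. Together the 10 genes took 2.87%, 2.37% and 2.08% of all reads of the 3 cultures (2.44% ± 0.400, SD, n = 3), against 0.0147% to 0.0189% in sham and 0.0128% to 0.0161% in OHT libraries. Actb, cytoplasmic beta actin, alone ranked above Acta2 among 17035 genes. Tpm1 ranked 9, Cald1 19, Myl9 40, Cnn2 49, Cnn1 103, Tpm2 117, Tagln2 204 and Actn1 230 by reads, which favour long transcripts. Tagln was the exception, at rank 9288. In the sorted cells the 10 genes ranked between 2913 (Tagln2) and 16279 (Tagln) of 16367.

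**Figure D1:**
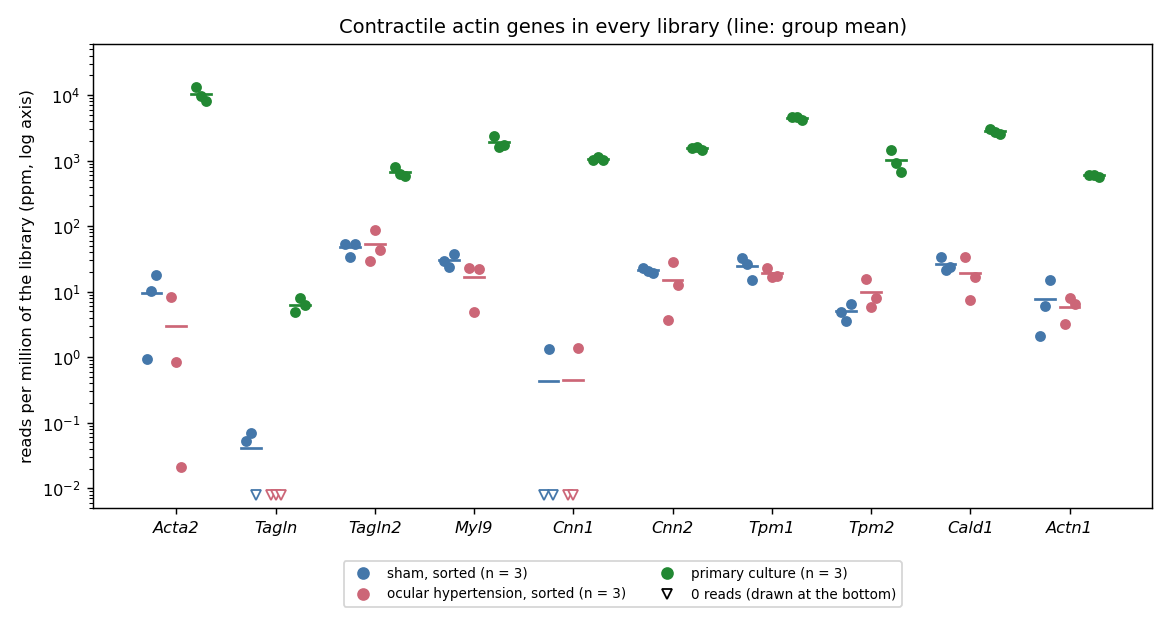
Level of each of the 10 genes in each of the 9 libraries, in ppm of the library on a log axis (points, 1 per library; short line, group mean; open triangles, 0 reads). The 3 cultures lie above all 6 sorted libraries for every gene, while sham and OHT libraries overlap for 8 of the 9 genes with reads in both groups. Myl9 is lower in every OHT than in every sham library on this scale, and Tagln had reads in 2 sham libraries alone among the 6.

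Acta2 stood at 13250, 9727 and 8134 ppm in the 3 cultures (10370 ± 2618, SD, n = 3). In the sorted cells it was at 0.952, 10.1 and 18.0 ppm in sham and at 8.25, 0.858 and 0.0212 ppm in OHT, the last being 1 read among 47.1 M. The lowest culture thus lay 452-fold above the highest sorted library. The ratio of the means, 1629, was the ninth highest of the 15438 genes in both tables.

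Among the genes that lie along the filament, Tpm1 was at 4674, 4663 and 4106 ppm in the cultures against 14.8 to 32.4 ppm over the sorted libraries. Tpm2 varied most between cultures, at 1434, 915 and 670 ppm, and was at 3.59 to 15.5 ppm in sorted cells. Both tropomyosins were above every sorted library in every culture, with ratios of means of 206 and 136.

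Cnn1, the calponin of differentiated smooth muscle, had 0 reads in 4 of the 6 sorted libraries, 56 reads in sham replicate 2 and 64 in OHT replicate 3. The cultures held 1019, 1149 and 1036 ppm of it, close to each other. Its ratio of means, 2399, was the largest of the 10 genes and the seventh of all. Cnn2, the more widely expressed calponin, was measured in every library, at 1580, 1636 and 1431 ppm in cultures and 3.70 to 28.2 ppm in sorted cells. Cald1 was at 3031, 2760 and 2543 ppm in cultures and 7.54 to 34.1 ppm in sorted cells, a ratio of means of 121.

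Myl9, the regulatory light chain, was at 2345, 1620 and 1746 ppm in the cultures and at 4.85 to 37.3 ppm in sorted cells. Actn1 was at 605, 607 and 563 ppm in cultures, the narrowest relative spread of the 10 genes, and at 2.09 to 14.8 ppm in sorted cells. Both lay above every sorted library in every culture, with ratios of means of 81.8 and 87.6. Tagln2, a transgelin of many non-muscle cells including leukocytes, was at 50.4 ppm on average in the sorted cells, the highest of the 10 also per kilobase of transcript (31.8 ppm), and had the smallest ratio, 13.1, with 787, 617 and 584 ppm in the cultures.

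Tagln, the smooth muscle transgelin also known as SM22 alpha, was low in every library. It had 2, 3 and 0 reads in the sham libraries, none in the 3 OHT libraries, where 3 reads (0.0560 to 0.0636 ppm, counting error only) are the limit that a count of 0 allows, and 321, 600 and 476 reads in the cultures (6.32 ppm ± 1.55, SD, n = 3). The cultures were above every sorted library, at a level far under that of the other 9 genes. Its count is uncertain, because 67.9% of its exon bases in GENCODE M21 (GRCm38) lie within exons of genes on the opposite strand, Gm48529 and Pcsk7. Of its main transcript, 85.9% lies within the RefSeq bounds of Pcsk7, a protease gene that the cultures held at 62.7 ppm ± 9.01 (n = 3), whereas 0% of the other 9 genes' transcripts lies within another RefSeq gene. The SMARTer v4 kit named in the labels does not mark strand, and the sources do not say how reads in overlaps were counted, so reads of Tagln and its neighbours cannot be told apart. For Actn1 8.15% of exon bases lay in opposite-strand exons, and for the other 8 genes 0%. No stretch of 150 bases, the read length, in the main transcript of any of the 10 genes was shared with a transcript of another gene.

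Per kilobase of main transcript, which allows levels of different genes to be compared, the order in the cultures was Acta2 (5096 ± 1286 ppm per kilobase, SD, n = 3), Tpm1 (2361 ± 171), Myl9 (1688 ± 343) and then a group of 5. These were Cald1 (673 ± 59.3), Cnn2 (630 ± 43.1), Tpm2 (480 ± 186), Cnn1 (449 ± 29.6) and Tagln2 (418 ± 68.5). Neighbours in that group of 5 overlapped in their libraries, and no neighbours overlapped among Acta2, Tpm1, Myl9 and the group. Actn1 (158 ± 6.73) and Tagln (3.97 ± 0.971) came last, each apart from its neighbour. Tpm1 and Cald1 have many transcripts, and over the length of all their exons they came to 691 and 231 ppm per kilobase. On that scale Myl9 (1638) was second.

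Most of these proteins, Cald1 aside, have close relatives that do similar work. The share of each relative within a family does not depend on how a library is scaled. In the sorted cells 5 families were led by relatives outside the 10 genes: Actb among the actins, Tpm3 among tropomyosins, Cnn3 among calponins, Myl12a and Myl12b among regulatory light chains, and Actn4 among the actinins considered. Transgelin 2 and 3 went the other way, with Tagln2 ahead of Tagln3 in every sorted library (82.4% of sham and 85.0% of OHT on average). By main transcript length, the genes described here led 3 of the first 5 families in the cultures. They held 31.2% of the sum of Acta2, Actb and Actg1 and 32.3% of that of Actn1 and Actn4. Actg2 and Acta1, listed for the cultures alone, were left out of the actin sum, at 765 and 236 ppm per kilobase there. Shares are of reads per kilobase of main transcript.

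Acta2 made up 37.3%, 28.7% and 27.7% of the sum of Acta2, Actb and Actg1 in the cultures, and 0.413% ± 0.363 in sham and 0.120% ± 0.187 in OHT (SD, n = 3 each). Among the tropomyosins, Tpm1 held 4.00% ± 1.10 of sham, 2.80% ± 1.17 of OHT and 53.9% ± 1.68 of culture reads, and Tpm3 held 74.5%, 73.0% and 11.1%. Tpm4 differed little, at 20.8%, 22.9% and 24.3%. With all exons as the length, Tpm1 held 30.9% of the culture tropomyosins and Tpm4 led, at 46.0%.

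Among the calponins Cnn3 held 95.5% ± 1.91 in sham, 90.9% ± 6.44 in OHT and 21.3% ± 5.15 in cultures. The larger part in the cultures was Cnn2 (46.0% ± 4.11) and Cnn1 (32.7% ± 1.14). Of the 3 regulatory light chains, Myl9 held 68.1% ± 1.34 in the cultures while Myl12b held 2.29%, against 51.7% of the sorted means in each group. Myl9 held 7.25%, 9.80% and 13.2% in sham and 4.69%, 1.52% and 4.47% in OHT, without overlap, a difference seen after the values were known and not tested. Actn1 was at 32.3% ± 5.71 of Actn1 and Actn4 in cultures, 5.55% ± 4.66 in sham and 7.86% ± 1.96 in OHT. Tagln2 was 82.4% of the sum of Tagln2 and Tagln3 in sham and 85.0% in OHT, and was 99.6% in cultures. Reads shared with near-identical copies could have been lost for some relatives: of 150-base windows, 43.5% in Actg1, 32.2% in Tpm3 and 21.3% in Myl12a recur in transcripts of other genes.

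**Figure D2:**
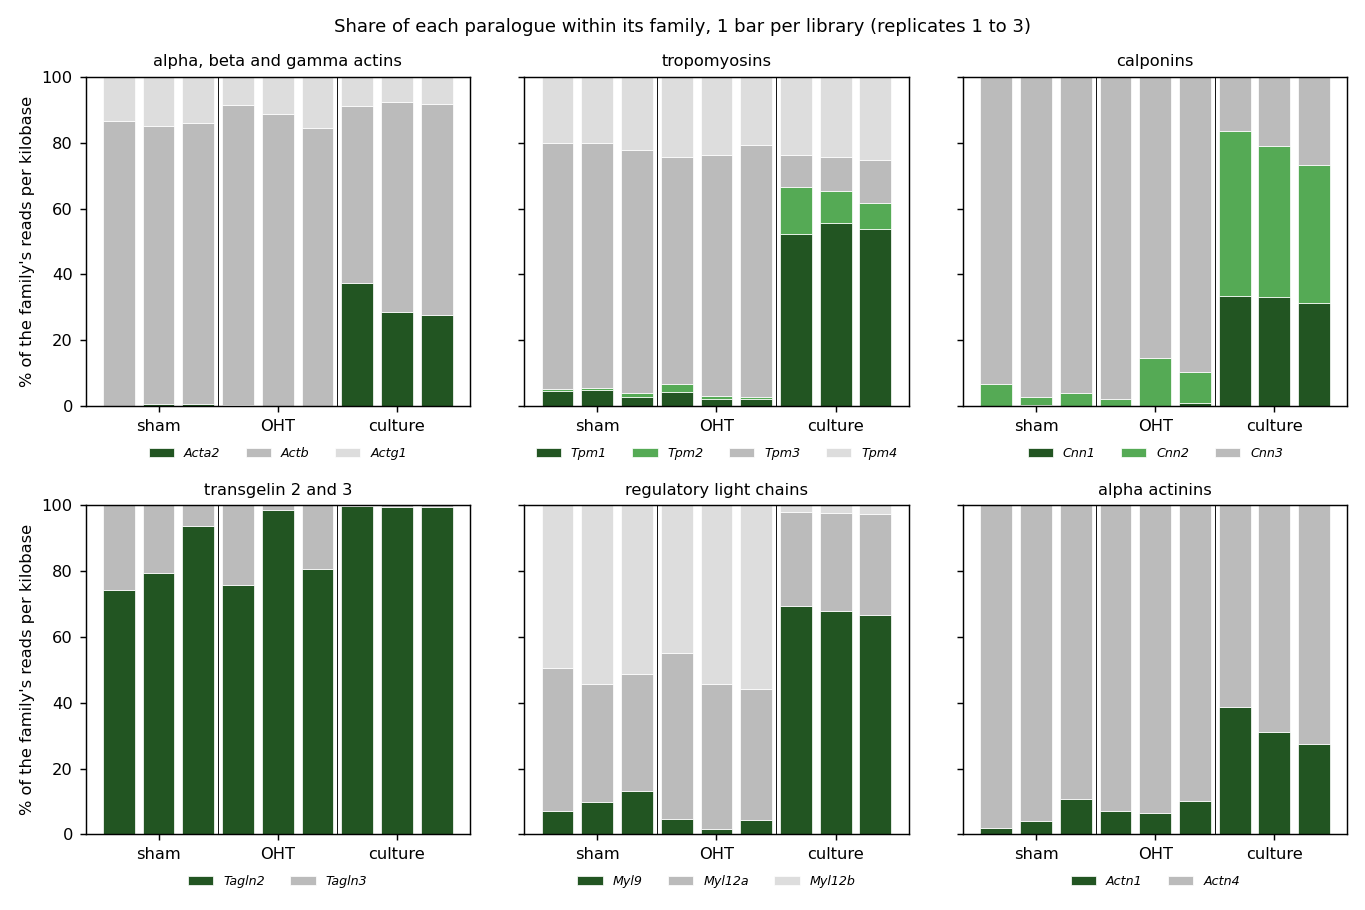
Share of each family member in the family's reads per kilobase of main transcript, in %, with 1 stacked bar per library in the order of replicates 1 to 3 of sham, OHT and culture (green, the genes described here; grey, their relatives). Acta2, Tpm1, Cnn1, Cnn2, Myl9 and Actn1 each take between 27.4% and 69.4% of their families in each culture and 14.7% or less in each sorted library.

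All 10 genes were above every sorted library in every culture. The same held for 32.5% of the 15438 genes that both tables list, and 16.5% were below every sorted library. Since the genes were chosen on this contrast, nothing is read from their count. Their median ratio of culture to sorted means was 128.5, beside 1.154 for all genes. No test was made, because the tables were normalized separately. The cultures came from pups and were not sorted, while the sorted cells came from operated mice, and these differences cannot be told apart from growth in culture. In bulk samples such as these, fewer cells of a type and less RNA per cell cannot be told apart either.

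Other parts of the apparatus were set beside the 10 genes in the same way. A list called smooth muscle restricted genes also holds genes of striated muscle, such as Des and Pln. Its genes were above every sorted library in 7 of the 8 that both tables held, with a median ratio of 35.5. Of these Mylk, the myosin light chain kinase, was at 466 ppm ± 62.4 in cultures. Actg2, the gamma actin of visceral smooth muscle, which is not counted among the 8, was highest on that list at 1020 ± 362 ppm (SD, n = 3). Pln, the phospholamban gene, was not above. Genes that link or anchor stress fibres, such as zyxin, were above in 15 of 16 (median ratio 31.3), and Vim was highest of them at 2757 ppm. Fibroblast activation genes were above in 11 of 13 (median ratio 55.7), led by Col1a1, a chain of type I collagen, at 5717 ± 1383 ppm.

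Fewer were above every sorted library among the myosin motors and their switches (6 of 13, median ratio 1.61), where Rhob and Myh14 were below every sorted library. Of the close relatives 7 of 11 were above (median ratio 4.89), of actin turnover genes 9 of 12 (3.39), of actins 2 of 3 (7.71). For serum response factor and its partners it was 7 of 9 (5.96). Fhl1, a LIM-domain partner, was highest of those at 1307 ± 215 ppm, and Srf itself was not above every sorted library (13.4 ppm, ratio 1.24).

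**Figure D3:**
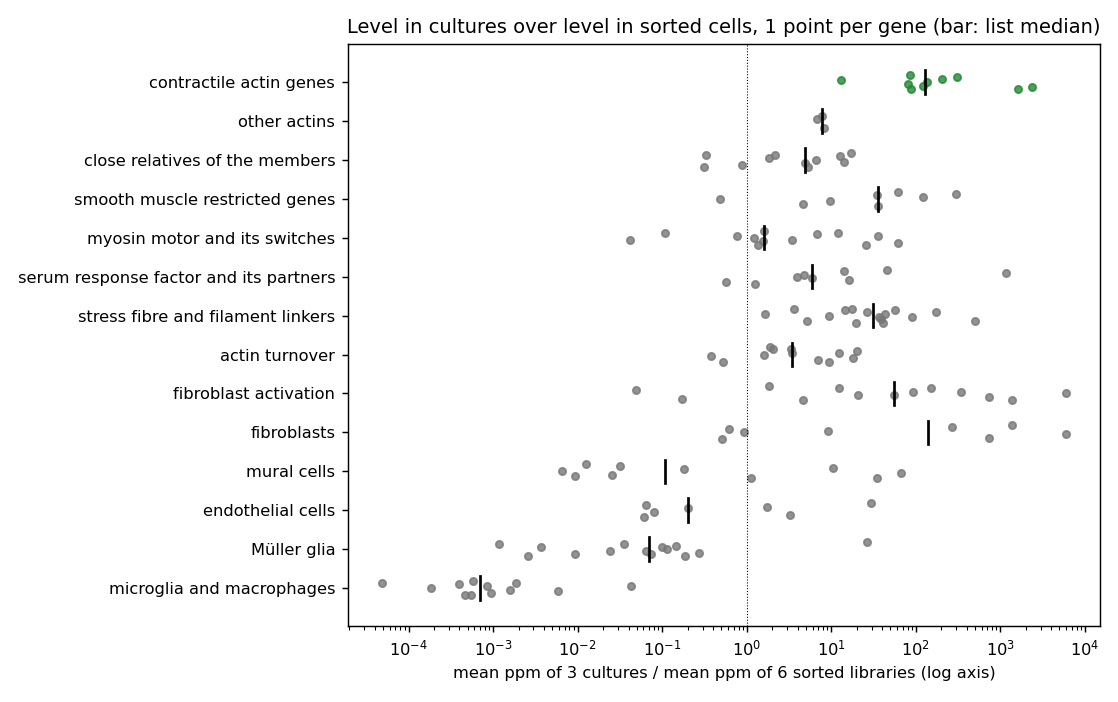
Ratio of the mean level in 3 cultures to the mean in 6 sorted libraries (ppm over ppm, log axis), 1 point per gene in both tables with a ratio above 0, by gene list (vertical bar, list median). The 10 contractile genes lie between 13.1 and 2399, with a median of 128.5, while Müller glia and microglia markers lie mostly to the left of 1.

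Markers of other contractile or matrix-making cells moved with these genes in part. Fibroblast markers were above every sorted library in 5 of 8 genes. Of the 10 mural cell markers that both tables list, 3 were above, Pdgfrb, Cspg4 and Notch3, and 4 below, Rgs5, Kcnj8, Higd1b and Ndufa4l2. These 10 summed to 0.0283% to 0.0378% of culture reads, 0.0144% to 0.0386% of sham reads and 0.00444% to 0.00906% of OHT reads. Of the pericyte genes Kcnj8, Abcc9 and Higd1b, the cultures held 0.0438, 0.0238 and 0.0217 ppm on average, near 0, while Pdgfrb, the platelet-derived growth factor receptor of mural cells and fibroblasts, was at 213 ppm ± 24.2 (n = 3). Their part in the level of the contractile genes was not tested.

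The comparison of OHT with sham asked whether raised eye pressure changed these genes in the sorted cells. limma, with Benjamini-Hochberg adjustment over all 14403 genes with a mean normalised count of at least 10, called 0 of the 9 contractile genes tested; Tagln fell below that level. Over all genes it also called 0, or 0%, at an adjusted p under 0.05, with 11.7% at an unadjusted p under 0.05, where 0 of the 9 were. On recovered reads edgeR's quasi-likelihood test called 0 genes, and DESeq2 called 250 of 13893, or 1.8%, of which 0 were among the 9. On normalised counts none of the 9 had groups that did not overlap, while among all genes 9.26% were higher and 9.18% lower in OHT without overlap. In ppm, 1 of the 9, Myl9, was lower in OHT without overlap, beside 11.4% of all genes lower and 5.44% higher. The estimates were above 0 for 3 genes and below 0 for 6, with a median of -0.05 on the log2 scale beside -0.12 for all genes. Of all 14403 genes, 6517 were above 0 and 7886 below.

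**Figure D4:**
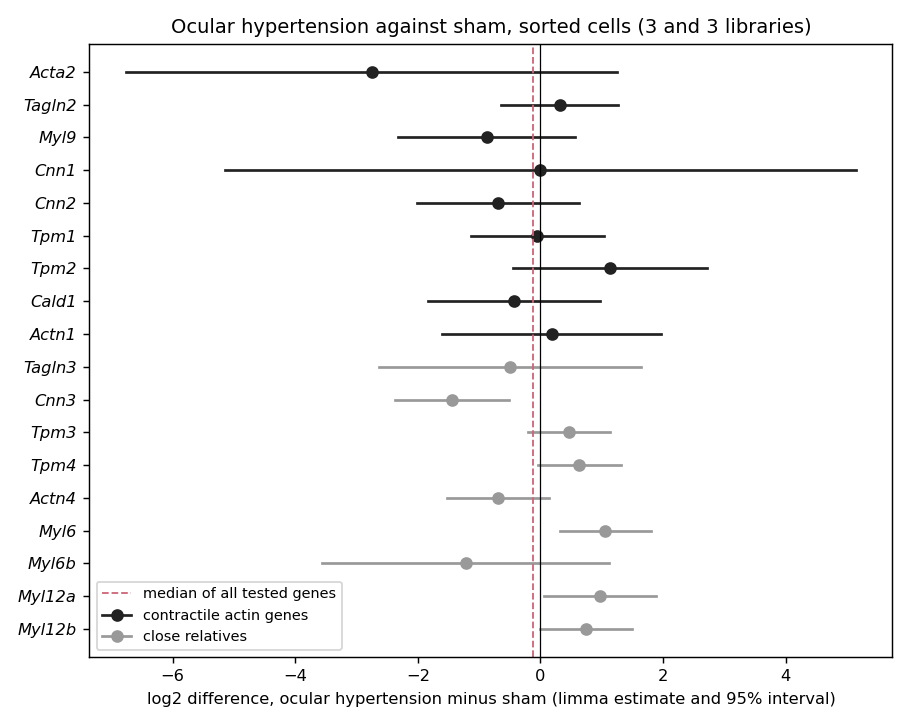
Log2 difference of OHT minus sham (limma estimate on log2 of value + 1, point, with its 95% interval, line) for the 9 contractile genes tested, in black, and 9 close relatives, in grey. All 9 black intervals include 0, and that of Acta2 runs from -6.76 to 1.25; the dashed line is the median of all genes, -0.12.

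Acta2 had 37.2, 398 and 766 normalised counts in the sham libraries and 543, 37.9 and 0.801 in the OHT libraries. Sham replicate 1 was as low as OHT replicate 2, OHT replicate 1 lay among the higher sham libraries, and OHT replicate 3 was almost without it. The means were 400.4 ± 365 and 193.9 ± 303 (SD, n = 3 each), with the groups overlapping. The log2 difference was -2.75 (SE 1.83, 95% interval -6.76 to 1.25, limma adjusted p = 0.549). Its size rested on single libraries: it was -0.64 without OHT replicate 3, the library with 1 read, and -4.76 without OHT replicate 1. On recovered reads it was -1.19 with edgeR and -1.05 with DESeq2, nearer to the ratio of the means.

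Myl9 had 1132, 930 and 1587 normalised counts in sham and 1495, 214 and 839 in OHT, where replicate 2 was low and the groups overlapped. In ppm it was at 29.0, 23.6 and 37.3 in sham and 22.7, 4.85 and 22.2 in OHT, so that OHT lay below sham throughout, if by little in 2 of the libraries. Its log2 difference was -0.88 (SE 0.66, interval -2.32 to 0.56, limma adjusted p = 0.587), and -0.08 without that library. Cald1 was lowest in the same library, with 1332, 855 and 1017 in sham and 2211, 333 and 642 in OHT. OHT replicate 1 was the highest of the 6 for Cald1, and without OHT replicate 2 its difference moved from -0.43 (SE 0.64, interval -1.83 to 0.96, limma adjusted p = 0.781) to 0.18.

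Tpm2 had the largest estimate above 0. It had 188, 141 and 280 normalised counts in sham and 1021, 256 and 305 in OHT, a log2 difference of 1.14 (SE 0.72, interval -0.44 to 2.72, limma adjusted p = 0.533). OHT replicate 1 stood apart from the other libraries, and the rest of the OHT group lay near the top of sham; without that library the difference was 0.52. Tpm1 was at 1267, 1030 and 632 in sham and 1517, 750 and 653 in OHT. These overlapped throughout, and its difference of -0.05 had an interval of -1.14 to 1.04 (limma adjusted p = 0.973).

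Cnn2 was even in sham, at 911, 820 and 827, and uneven in OHT, at 243, 1242 and 482. The OHT libraries lay on both sides of the sham libraries, with a log2 difference of -0.69 (SE 0.60, interval -2.02 to 0.63, limma adjusted p = 0.637). Cnn1 rested on 1 library in each group, at 51.7 normalised counts in sham replicate 2 and 51.3 in OHT replicate 3, so its estimate near 0 has an interval from -5.15 to 5.14. Tagln2 was at 2119, 1314 and 2305 in sham and 1952, 3905 and 1611 in OHT, with OHT replicate 2 highest (0.31, SE 0.43, interval -0.64 to 1.26, limma adjusted p = 0.765). Actn1 was at 81.6, 236 and 632 in sham and 210, 353 and 242 in OHT, all 3 OHT libraries lying inside the range of sham (0.18, SE 0.82, interval -1.60 to 1.97, limma adjusted p = 0.931).

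The spread between libraries was thus wide and differed by gene. Over the 6 sorted libraries the highest normalised count was 956 times the lowest for Acta2, between 5.11 and 7.74 times for Actn1, Myl9, Tpm2, Cald1 and Cnn2, and 2.40 and 2.97 times for Tpm1 and Tagln2. In the cultures the same ratio, in ppm, was between 1.08 (Actn1) and 2.14 (Tpm2), with Tagln at 1.64 and Acta2 at 1.63. Culture replicate 1 was highest for Acta2, Tpm1, Tpm2, Myl9, Cald1 and Tagln2 in ppm, and lowest for Cnn1 and Tagln.

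Whether the genes moved together was described over the 6 sorted libraries, which share a preparation and differ in depth and in their mixture of cells, so no p is given. With Acta2, the Pearson r of log2(value + 1) was 0.49 for Cald1, 0.41 for Myl9, 0.36 for Tpm1, 0.31 for Actn1, 0.18 for Tpm2, -0.03 for Tagln2, -0.08 for Cnn2 and -0.39 for Cnn1. Their median was 0.24, beside 0.002 for all genes with a mean of at least 100. Of the 36 pairs among the 9 genes 17 were positive and 3 were above 0.5. The closest pair was Myl9 with Cald1 (r = 0.87), and Tpm1 with Cald1 came next (0.72). Cnn2 with Tpm2 (-0.84), Tagln2 with Cnn1 (-0.74) and Tpm1 with Actn1 (-0.70) ran in opposite directions. The 9 genes thus did not form 1 block over the sorted libraries.

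**Figure D5:**
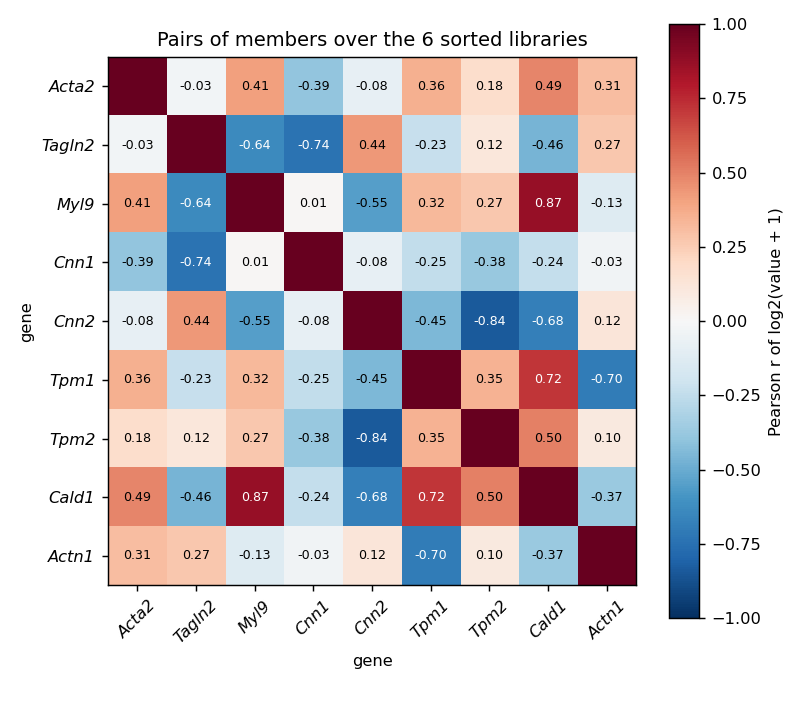
Pearson r of log2(value + 1) over the 6 sorted libraries for each pair of the 9 contractile genes with a mean of at least 10 (red, positive; blue, negative; value printed in each cell). Myl9, Cald1 and Tpm1 show the highest values (0.87 and 0.72 with Cald1), Cnn2 with Tpm2 the lowest (-0.84), and Acta2 lies between -0.39 and 0.49 with the rest.

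Of 11512 genes with a mean of at least 100, those closest to Acta2 over the 6 libraries were Nell2 (r = 0.99, Spearman rho 0.89), Smim13 (0.99, rho 1.00), Ube2e2 (0.99, rho 0.94), Ahnak (0.99, rho 0.94) and Dnpep (0.98, rho 0.83). They are the highest of 11512 values over only 6 libraries, and how many would reach such an r by chance was not tested. The size of change is not part of r: Smim13 ran from 401.5 to 1138 normalised counts, and Acta2 from 0.801 to 766. Nell2 had 32.0, 542 and 570 normalised counts in sham and 1180, 27.2 and 0 in OHT, high in the same 3 libraries as Acta2 and low in the same 3. In the cultures it was at 0.592 ppm on average, where Acta2 was at 10370 ppm. None of these 5 genes is on the lists of contractile genes used here. Among genes of all lists Hes1, a Müller glia marker, had the highest r, 0.90 (rho 0.71), and Cnn3 had 0.83 (rho 0.60). Myh11, the smooth muscle myosin heavy chain, had r = 0.82 (rho 0.67) and Vim 0.71 (rho 0.89). Of the smooth muscle list with Myh11, Pln had 0.82, Mylk 0.49, Des 0.36, Smtn 0.22, Synpo2 0.02, Lmod1 -0.05 and Nexn -0.31. These listed genes were picked out after their values were seen.

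The other lists gave 0 calls by limma between OHT and sham as well. Some of their genes had groups without overlap, to be read against the 9.26% and 9.18% of all genes given above. Of the close relatives Tpm3, Tpm4 and Myl6 were higher and Cnn3 and Myl6b lower in OHT, of 9 tested. Cnn3, which led the sorted calponins, had the smallest p below 0 on that list, with 10814, 25037 and 16425 normalised counts in sham and 9604, 5985 and 3831 in OHT, a log2 difference of -1.44 (SE 0.42, limma adjusted p = 0.332). Myl6, an essential light chain of the same myosins, had 9403, 6736 and 8787 in sham and 23116, 12589 and 17288 in OHT (1.06, SE 0.34, limma adjusted p = 0.332).

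Of the 8 genes of the smooth muscle list tested, 7 had estimates below 0 (median -2.70), as did 7886 of all 14403 genes (median -0.12). Medians were -1.67 for mural and -1.45 for endothelial markers and 0.59 for microglial ones. Several genes of the smooth muscle list had low counts, such as Lmod1 with means of 51.7 in sham and 12.9 in OHT. Single libraries near 0 can enlarge such estimates, so these medians are not on an equal footing. Myh11, Des and Pln were lower in every OHT library than in any sham library. Des, the muscle intermediate filament gene, had 71.3, 67.3 and 14.4 normalised counts in sham and 0 reads in the 3 OHT libraries (limma adjusted p = 0.332). Myh11 had 64.1, 98.7 and 438 in sham and 58.0, 0 and 0 in OHT, so its nearest libraries were close. Pln was low throughout, at 30.0, 67.3 and 55.5 in sham and 11.1, 16.5 and 0 in OHT. Among motors and switches Myh10, Myh11, Myh14 and Ppp1cb were lower without overlap, of 13. Among partners of serum response factor Mrtfa was higher and Fhl1 lower, of 8. Of 12 actin turnover genes Cfl1, Tmsb4x, Tmsb10 and Capzb were higher and Cfl2 lower, and of 13 fibroblast activation genes Thbs1 was higher and Ccn2 lower.

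Mural cell markers, which mark cells that express Acta2 on retinal vessels, were lower in sum in the OHT libraries. The list of 11 summed to 0.0236%, 0.0657% and 0.0724% of sham libraries and 0.0105%, 0.00825% and 0.00910% of OHT libraries, without overlap. Of these genes 9 had estimates below 0 (median -1.67), and Pdgfrb, Rgs5, Rgs4, Vtn and Notch3 were lower in every OHT library, with none called by limma (smallest adjusted p 0.332). In sham most of the sum came from Rgs5, Rgs4 and Vtn, and the list was not uniform. In OHT replicate 1, the OHT library with 543 normalised counts of Acta2, Kcnj8 (1007), Higd1b (474) and Ndufa4l2 (840) were at their highest of the 6 libraries, and Abcc9 had 91.2 there and 0 reads in the other OHT libraries. Over the 6 libraries the r of these 4 with Acta2 was 0.68, 0.60, 0.51 and 0.69, and they were picked out after their values were seen. For the rest of the list it was 0.62 (Rgs5), 0.47 (Rgs4), 0.45 (Vtn), 0.11 (Cspg4), 0.02 (Anpep), 0.01 (Notch3) and -0.03 (Pdgfrb). None of the 11 markers was at 0 in all libraries of either group. The 6 astrocyte markers, at 0.00136%, 0.0751% and 0.132% of sham and 0.00552%, 0.00204% and 0.0104% of OHT libraries, and the 8 fibroblast markers, at 0.000656%, 0.0136% and 0.0162% and at 0.000865%, 0.00230% and 0.000859%, were high in sham replicates 2 and 3, as Acta2 was, but not in OHT replicate 1. Pdgfra, which stands on both lists, made up most of the fibroblast sum in those 2 sham libraries.

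Markers of other cell types also had estimates to 1 side of 0, with 0 called by limma. Of all 14403 genes, 7886 had estimates below 0. Of 14 rod markers 14 had estimates below 0 in OHT, 13 of them at an unadjusted p under 0.05 (median -2.27), as did 8 of 8 endothelial markers (1 at that p, median -1.45), 6 of 6 astrocyte markers (0 at that p, median -2.31), 6 of 6 tested fibroblast markers (0 at that p, median -1.67) and 13 of 14 Müller glia markers (1 at that p, median -0.81). Of 12 microglia and macrophage markers 9 were above 0 (3 of the 12 at that p, median 0.59), 6 of them higher in OHT without overlap. The part of these differences in the values of Acta2, Myl9 and the genes of the smooth muscle list was not tested.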

How the data were processed

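The deposited signal, 1 value per gene and library, was gene counts divided by 1 factor per library, per the values themselves; whole reads came back for 100% of values at a tolerance of 0.05 reads, which in culture replicate 3, whose factor is close to 1, is no independent check. Per the submitters' processing notes, the tools included bcl2fastq 2.20, Trim Galore 0.6.6, FastQC 0.11.9 and STAR 2.7.1a, and the build mm39; the counting program and annotation, and how the factors were made, were not given in the sources used here. Sorted cells (16367 genes) and cultures (17035 genes) were deposited in separate tables, so no test crosses them, and levels across them are reads per 1e6 reads of each library (ppm). Amplified reads are not independent molecules, so limits cover counting error only.

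OHT was compared with sham by limma 3.58.1 in R 4.3.3 (lmFit, eBayes with trend) on log2(value + 1). Genes with a mean of at least 10 were kept, with Benjamini-Hochberg adjustment at 0.05. The added 1 draws differences of low genes toward 0. A single library near 0 can enlarge them instead, as for Acta2 (-2.75 with limma, -1.05 with DESeq2). The script was tested on simulated counts, with changed genes drawn from those with a mean of at least 100. It recovered 14%, 68.5% and 96.5% of genes changed by a log2 of 2, 3 and 5, so most changes of a log2 of 2 were missed. Alternatives were DESeq2 1.42.0 and edgeR 4.0.16 (its quasi-likelihood test), both run on recovered reads, with other pseudocounts, filters, scalings and left-out libraries. Transcript lengths and overlaps came from GENCODE M21 and promoters from RefSeq, both on GRCm38, which differs from the authors' build, so no coordinates of their counts are given. The members and lists were chosen with earlier results of these data known. Other list genes are named by the highest level in cultures or sorted cells, the smallest p per direction, or a lack of overlap. Pcsk7, Kcnj8, Abcc9, Higd1b, Ndufa4l2, Col1a2, Col3a1, Lum, Pi16, Srf, Cspg4, Hes1, Smtn, Synpo2 and Lmod1 were named after their values were seen.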

Additional observations from a re-analysis of the deposited data

How the results depend on the processing

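No alternative called any of the 9 contractile genes tested between OHT and sham: 0 of 152 estimates passed the threshold, and 17 changed sign. Acta2, Myl9, Cnn2 and Tpm2 kept their sign in all 17 alternatives, with adjusted p from 0.395 to 0.906 for Acta2. Cnn1 turned to 0.0026 with TMM factors, 0.19 after quantile normalization and 0.19 with array weights, and Actn1 to -0.057 with array weights, -0.32 with edgeR and -0.24 with DESeq2. Leaving out 1 library gave -1.91 to 1.90 for Cnn1, -0.56 to 0.91 for Actn1, -0.42 to 0.19 for Tpm1, -0.068 to 0.57 for Tagln2 and -1.18 to 0.18 for Cald1; the cause was not tested.

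Over all genes, the count of calls was 0 with limma and edgeR but 250 with DESeq2 and 0 to 17 with 1 library left out (12 without sham replicate 1, 17 without sham replicate 3). Over all genes, same-numbered libraries did not deviate together (r = 0.08, -0.02 and -0.05). No pairing by number was seen, but these r values cannot exclude shared handling that touched fewer genes. With the replicate block 2 genes passed, neither of them a contractile gene. The summed culture share was 2.13% to 2.75% over its 5 alternatives. The ratio of culture to sorted means for Acta2 was 1268 to 1804. In the sorted cells 4 of 6 libraries had 0 reads of Tagln, and 4 of 6 had 0 of Cnn1, which limits what their levels show. Cnn1 had 56 reads in sham replicate 2 and 64 in OHT replicate 3, and the cause of the zeros was not tested.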
